A study of Arabidopsis thaliana with 12 samples.

Results

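The response of the Arabidopsis mutant fve-4 to 12 h of warmth was taken gene by gene from 3 libraries at 27 °C and 3 at 21 °C. The genes described are those with at least 1 TPM (transcripts per 1000000, reads scaled by gene length and library) in at least 3 of these 6 libraries, which were 19583 of the 27655 genes in the deposited table (70.8%). The libraries came from whole 7-day-old seedlings raised in short days of 8 h light and 16 h dark at 21 °C. At ZT1 (hours after lights on) seedlings were moved to 27 °C or stayed at 21 °C, and at ZT13, in the dark, they were harvested. Both groups carry the same mutation of FVE, and the wild type Col (Columbia), treated alike with 3 libraries at each temperature, served only for comparison. The study asks how FVE and the histone deacetylase HDA9 take part in the response to warmth.

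Warm temperatures below heat stress make Arabidopsis seedlings elongate, a response known as thermomorphogenesis. In the wild type it runs through the bHLH factor PIF4, which switches on auxin synthesis and growth genes and is itself held back at night by the evening complex of LUX, ELF3 and ELF4. FVE (also MSI4) is a WD40-repeat protein that works with histone deacetylases, and its mutants flower late because the flowering repressor FLC is not silenced.

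FVE itself (AT2G19520) was listed at 4.89, 5.48 and 5.08 TPM in fve-4 at 21 °C and at 7.00, 6.82 and 6.64 TPM at 27 °C. Those 6 values lie far below the 39.3 to 52.7 TPM of the 6 Col libraries, and within fve-4 the warm libraries were all higher (log2 change 0.35 ± 0.07 SE, adjusted p = 0.000892). HDA9 (AT3G44680), a histone deacetylase, had 19.2, 19.2 and 17.7 TPM at 21 °C and 16.9, 15.3 and 14.4 TPM at 27 °C, groups that do not overlap. Its fall of 0.25 on the log2 scale (adjusted p = 0.0224) lost its call without 21 °C replicate 1 or 2 or without 27 °C replicate 2 or 3 (highest adjusted p 0.0948).

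The 6 fve-4 libraries held 12516426 to 14103324 recovered reads and 19244 to 19591 genes at 1 TPM or more. On the first principal component of log2(TPM + 1), which took 55.1% of the variance of all 12 libraries, replicate 1 of fve-4 at 27 °C lay at 7.12, apart from replicates 2 and 3 at 20.08 and 19.38. Without it 4482 genes were called higher and 2762 lower, against 4983 and 2789 with it. The labels do not say whether libraries came from separate cultures, so p-values measure the spread between these libraries only. In whole seedlings, fewer cells of a type and less RNA per cell cannot be told apart.

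Warmth changed a large part of the transcriptome of fve-4. At a Benjamini-Hochberg adjusted p under 0.05, 7772 genes (39.7% of those tested) were called in limma's fit, 4983 higher (25.4%) and 2789 lower (14.2%). Of the called genes, 7507 had no overlap between the 3 warm and the 3 cool libraries. Calling itself selects for such separation, so this count is a description and no further support. In groups that do not differ, 3 against 3 libraries separate in a share of 0.1, and the share over all genes tested is not reported here. A change of at least 2-fold was rarer, with 386 genes higher (1.97%) and 187 lower (0.955%), the latter count rising to 383 with limma-voom on recovered reads. The median log2 change over all genes tested was 0.07, and every rise or fall given below without a unit is a log2 change. The share of higher genes among those called, 64.1%, depended on the scaling, being 49.5% once libraries were rescaled by median ratios, 48.7% with quantiles made equal and 49.2% in limma-voom. Where a gene list below has 0 calls in limma in 1 direction, an unadjusted p under 0.05 gave 0 there as well, except for 1 lower gene in the ATG8 list, and limma-voom gave 0 except for 1 lower gene each among aquaporins, wax genes, the ATG8 list and root markers. Of the genes tested, 98 had no cool library at 1 TPM and 49 no warm one, so these passed only through the group where they were high. Of the list members called below, 11 are of this kind (PIL1, GA20OX1, XTH25, RVE8, GI, CDF1, HSFA2 and ACS11 through the warm libraries, SOC1, TT8 and CYP71A12 through the cool ones), which had to differ to be tested, so their calls are a description and no support. At the edge of the filter, the 323 genes with exactly 3 libraries at 1 TPM had a median highest level of 1.84 TPM, and the 318 genes with exactly 2, which were left out, one of 1.45 TPM.

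**Figure D1:**
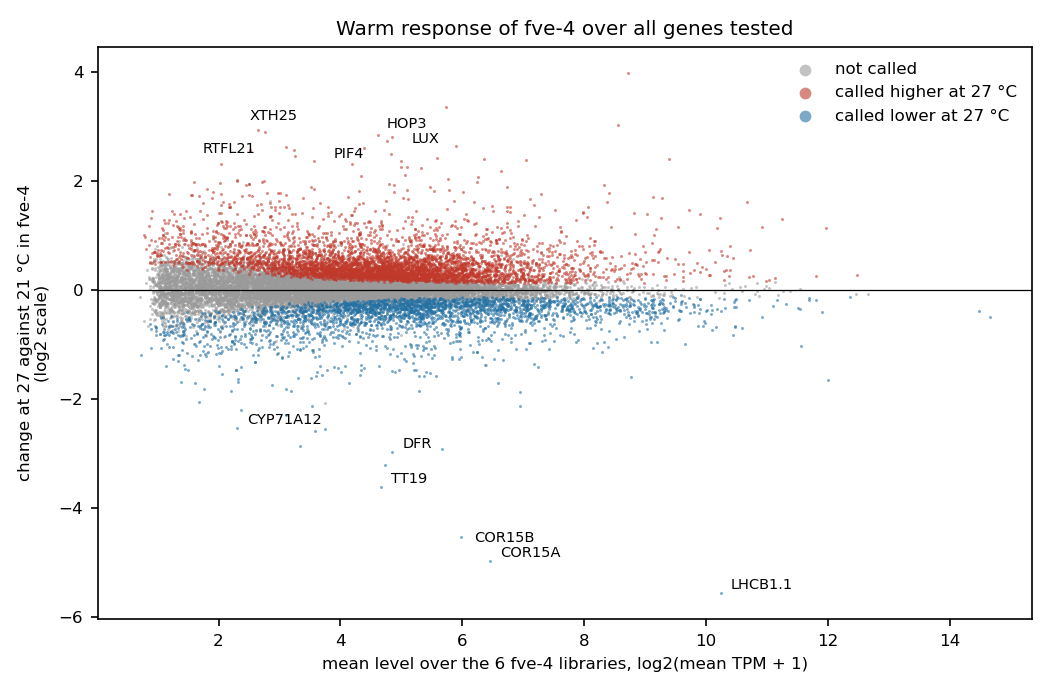
Change of each of the 19583 genes in fve-4 (27 against 21 °C, log2 scale) against its mean level over the 6 fve-4 libraries, log2(mean TPM + 1). Red points are called higher (4983 genes), blue points called lower (2789) and grey points not called (11811). LHCB1.1, COR15A and COR15B lie lowest, and XTH25, HOP3 and LUX are among the highest of the genes with a symbol.

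Among called genes with a symbol, a group mean of at least 5 TPM and no overlap, the 10 that rose most included regulators and executors of growth. XTH25 (AT5G57550), a xyloglucan endotransglucosylase/hydrolase that remodels the cell wall, had 0.193, 0.597 and 0.325 TPM at 21 °C and 4.98, 12.9 and 12.4 TPM at 27 °C. The warm libraries were all higher, replicate 1 least so (log2 change 2.93 ± 0.30), but no cool library reached 1 TPM, so the gene passed the filter only through the warm ones and its change is given as a description. LUX (AT3G46640), the DNA-binding subunit of the evening complex, had 6.16, 5.98 and 6.05 TPM at 21 °C and 43.3, 47.3 and 47.3 TPM at 27 °C. That is a 7.59-fold difference of the means, from 6.06 ± 0.0901 to 46.0 ± 2.3 TPM (SD, n = 3), with little spread on either side (log2 change 2.73 ± 0.07, adjusted p = 2.03e-11). PIF4 (AT2G43010) had 7.65, 7.96 and 6.85 TPM at 21 °C and 36.8, 55.2 and 51.0 TPM at 27 °C, a 6.37-fold difference (2.50 ± 0.16, adjusted p = 1.08e-07). IAA29 (AT4G32280), an Aux/IAA gene known as a PIF4 target, had 1.93, 1.15 and 2.06 TPM against 11.1, 16.8 and 17.6 TPM (2.57 ± 0.18, adjusted p = 1.86e-07). SAUR22 (AT5G18050), a small auxin-up gene of cell expansion whose near copies may share its reads, rose from 0.221 to 1.2 TPM in the cool libraries to 7.16 to 9.8 TPM in the warm ones (2.56 ± 0.31).

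The other large rises were in genes of mixed roles. HOP3 (AT4G12400), a co-chaperone that links HSP70 with HSP90, had 3.96, 6.02 and 5.10 TPM at 21 °C and 38.4, 44.0 and 43.7 TPM at 27 °C. The groups were far apart, an 8.36-fold difference of the means (2.85 ± 0.11, adjusted p = 2.55e-09). RTFL21 (AT1G67265), of a family of small peptides that limit cell proliferation, had 1.42, 0 and 0.533 TPM against 6.74, 11.1 and 15.1 TPM (2.89 ± 0.32). PCC1 (AT3G22231), a pathogen- and clock-controlled gene, had 1.58, 10.3 and 10.3 TPM against 36.1, 58 and 50.7 TPM (2.81 ± 0.44, adjusted p = 0.000199). LSU1 (AT3G49580), a marker of sulfur deficiency, had 2.32, 1.12 and 0.869 TPM against 17.6, 11.4 and 12.2 TPM (2.62 ± 0.34). MBP1 (AT1G52040), a myrosinase-binding protein, had 2.19, 4.66 and 5.29 TPM against 71.0, 18.2 and 17.9 TPM, with replicate 1 at 27 °C far above the rest of its group (2.61 ± 0.40, adjusted p = 0.000184).

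Chosen by the same limits, the 10 largest falls were in an antenna gene, cold-regulated genes and genes of anthocyanin synthesis and defence. LHCB1.1 (AT1G29920), a chlorophyll-binding protein of the photosystem II antenna, had 2684, 2238 and 2167 TPM at 21 °C and 45.5, 51.0 and 50.2 TPM at 27 °C. It was 48.3-fold lower in the warm libraries (−5.56 ± 0.08 on the log2 scale, adjusted p = 1.6e-14), with the limit that it shares reads with its near-identical copies LHCB1.2 and LHCB1.3. COR15A (AT2G42540), which protects chloroplast membranes in freezing, had 126.6, 190.9 and 188.5 TPM against 5.40, 3.24 and 4.58 TPM, 38.3-fold lower (−4.97 ± 0.24). COR15B (AT2G42530), its neighbour and near copy, had 118.1, 130.8 and 111.1 TPM against 5.10, 5.22 and 2.71 TPM (−4.54 ± 0.18), and KIN1 (AT5G15960), another cold-regulated gene, 37.0, 56.5 and 45.8 TPM against 7.74, 2.84 and 2.85 TPM (−3.21 ± 0.29). In both pairs of like genes, COR15A with COR15B and KIN1 with KIN2, reads may have been shared.

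The falls included 4 genes of anthocyanin formation. DFR (AT5G42800), dihydroflavonol reductase, had 44.2, 48.9 and 57.7 TPM at 21 °C and 6.51, 4.78 and 5.32 TPM at 27 °C, 9.08-fold lower (−2.97 ± 0.13, adjusted p = 6.46e-09). TT19 (AT5G17220), a glutathione transferase that carries anthocyanin to the vacuole, had 43.5, 45.4 and 47.5 TPM against 4.55, 1.6 and 2.81 TPM, 15.2-fold lower. 5MAT (AT3G29590), an anthocyanin malonyltransferase, had 14.6, 14.9 and 20.8 TPM against 1.68, 1.05 and 1.53 TPM (−2.87 ± 0.18), and UF3GT (AT5G54060), an anthocyanin glycosyltransferase, 13.6, 10.8 and 15.4 TPM against 2.75, 1.51 and 1.51 TPM (−2.30 ± 0.17). All 4 had warm libraries far below the cool ones. The remaining 2 were GSTF6 (AT1G02930), a glutathione transferase, at 90.3, 85.6 and 89.2 TPM against 16.5, 6.69 and 11.3 TPM, and CYP71A12 (AT2G30750), of camalexin synthesis and with a near copy, at 5.25, 9.97 and 7.04 TPM against 0.687, 0.351 and 0.265 TPM, which passed the filter only through the cool libraries.

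**Figure D2:**
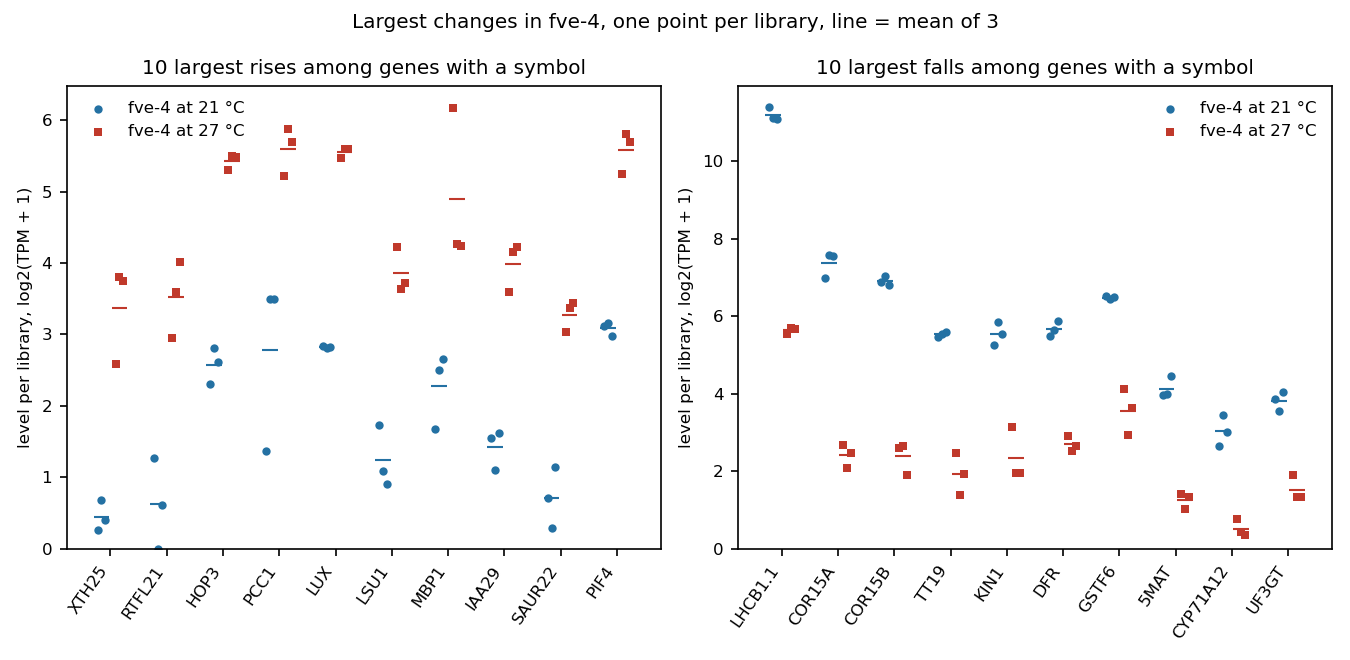
Levels of the 10 genes with a symbol that rose most (left) and fell most (right) in fve-4, as log2(TPM + 1), 1 point per library and a line at the mean of 3. Blue circles are the 21 °C and red squares the 27 °C libraries, which do not overlap for any of these genes because the choice of genes required it.

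Promoters of 4 of these genes, a clock, a chaperone, a cold-regulated and an anthocyanin gene, are shown because their windows hold motifs known for such genes, and they were chosen after values and motifs were seen. Like genes with large falls did not all hold them, since the COR15B window held 0 of the 5 motifs searched, and those of TT19 and 5MAT held no G-box. The windows reach from 250 bases before to 50 bases after the annotated transcript start (RefSeq, TAIR10.1), 5′ to 3′ on the gene's strand. Capitals mark every match, on either strand, to 5 motifs, the G-box CACGTG, the evening element core AATATCT, the heat shock element core GAANNTTC, the CRT/DRE core CCGAC and the telo-box AAACCCT. LUX lies on the plus strand at chr3:17182792-17183091, HOP3 on the minus strand at chr4:7341314-7341613, COR15A on the minus strand at chr2:17712281-17712580 and DFR on the minus strand at chr5:17165983-17166282.
LUX: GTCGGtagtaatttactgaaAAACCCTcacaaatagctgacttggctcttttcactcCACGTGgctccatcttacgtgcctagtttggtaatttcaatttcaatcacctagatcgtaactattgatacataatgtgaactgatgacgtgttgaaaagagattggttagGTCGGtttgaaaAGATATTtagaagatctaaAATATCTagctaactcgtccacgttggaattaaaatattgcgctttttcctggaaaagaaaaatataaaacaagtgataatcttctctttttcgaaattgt
HOP3: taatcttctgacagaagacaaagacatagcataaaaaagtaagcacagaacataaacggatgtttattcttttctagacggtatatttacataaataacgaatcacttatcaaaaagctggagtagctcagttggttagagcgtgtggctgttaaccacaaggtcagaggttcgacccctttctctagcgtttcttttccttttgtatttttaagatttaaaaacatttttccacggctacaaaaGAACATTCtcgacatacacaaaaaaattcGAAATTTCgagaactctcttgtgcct
COR15A: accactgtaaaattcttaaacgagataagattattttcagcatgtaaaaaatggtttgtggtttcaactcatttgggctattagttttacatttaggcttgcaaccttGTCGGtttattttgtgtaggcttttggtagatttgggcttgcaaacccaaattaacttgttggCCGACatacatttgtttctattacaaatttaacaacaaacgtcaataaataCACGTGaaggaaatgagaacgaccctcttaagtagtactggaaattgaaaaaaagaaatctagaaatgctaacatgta
DFR: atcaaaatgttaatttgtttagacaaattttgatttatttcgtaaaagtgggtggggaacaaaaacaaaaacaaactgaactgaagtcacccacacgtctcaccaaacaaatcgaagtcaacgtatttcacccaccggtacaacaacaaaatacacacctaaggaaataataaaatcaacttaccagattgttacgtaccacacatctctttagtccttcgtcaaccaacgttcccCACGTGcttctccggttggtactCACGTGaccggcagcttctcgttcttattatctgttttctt

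The LUX window held evening element cores 70 and 51 bases before the start, a G-box 193 bases before it, CRT/DRE cores at 250 and 82 bases and a telo-box at 230. The HOP3 window held a heat shock element core 5 bases before the start and another beginning at base 25 of the transcript. COR15A held CRT/DRE cores 142 and 79 bases before the start and a G-box at 28, and DFR held a G-box 14 bases before the start and one at base 10 of the transcript. Among all 19488 tested genes with such a window, the G-box was present in 8.9%, the evening element core in 11.6%, the heat shock element core in 11.1%, the CRT/DRE core in 16.1% and the telo-box in 9.22%. The G-box was in 39 of the 383 windows of genes at least 2-fold higher in warm fve-4 (10.2%) and in 27 of the 182 at least 2-fold lower (14.8%). In the same sets the evening element core was in 13.8% and 14.3%, the heat shock element core in 12.5% and 8.79%, the CRT/DRE core in 12.8% and 12.6%, and the telo-box in 6.53% and 5.49%, the CRT/DRE core and telo-box thus being rarer in both sets than among all genes. A match describes letters in the window and was not tied to binding.

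In the network around PIF4 more genes rose than fell. Of 28 PIF and light-signalling genes, all tested, 17 rose and 2 fell, with a median log2 change of 0.22 against 0.07 for all genes; scaling moved the count of falls to 4 after median-ratio rescaling and to 5 after quantile normalization or in limma-voom. PIF5 (AT3G59060), a close relative of PIF4, had 6.32, 9.0 and 6.18 TPM at 21 °C and 20.3, 28.4 and 28.5 TPM at 27 °C (1.71, adjusted p = 1.42e-06). PAR1, an HLH protein that dampens PIF activity, had 10.2, 9.19 and 11.5 TPM against 32.6, 51.8 and 45.8 TPM (1.95, adjusted p = 1.35e-07). LNG2, a LONGIFOLIA gene of cell elongation, had 21.0, 19.4 and 21.6 TPM against 35.8, 42.6 and 39.0 TPM (0.89, adjusted p = 9.39e-07). The 2 that fell were PIF7, a PIF of daytime shade and warmth responses, at 8.50, 10 and 8.92 TPM against 7.05, 4.81 and 5.56 TPM (−0.59, adjusted p = 0.00571), and HYH, the homologue of the light factor HY5, at 15.9, 14.1 and 14.9 TPM against 12.1, 5.35 and 7.68 TPM (−0.83, adjusted p = 0.00661). HY5 was not called, at 26.7, 25.1 and 24.6 TPM against 22.5, 19.3 and 21.2 TPM (−0.27, adjusted p = 0.0667), nor was PIF3 (−0.18, adjusted p = 0.0876).

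Auxin genes were called about as often as genes at large. Of 23 genes of auxin synthesis, transport and turnover, 8 rose, 2 fell and 13 were not called (43.5% called, against 39.7% of all genes; median 0.19). PIN3, an auxin efflux carrier, had 62.7, 56.8 and 57.4 TPM against 78.3, 90.9 and 90.0 TPM (0.54, adjusted p = 2.31e-05), and the influx carrier AUX1 rose by 0.37. GH3.5 and GH3.6, which conjugate auxin to amino acids, rose by 0.47 and 0.55. YUC8, the flavin monooxygenase through which PIF4 raises auxin in the warmth, had 2.21, 3.81 and 3.42 TPM against 4.39, 4.21 and 5.38 TPM. Its change of 0.46 only just passed (adjusted p = 0.0451) and lost its call under 12 of 15 alternatives, and it was 2.0 log2 units smaller than in Col (interaction adjusted p = 6.3e-05). TAA1, which makes the substrate of the YUC enzymes, fell by 0.62 (adjusted p = 0.000396) and the influx carrier LAX3 by 0.31.

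Of 21 Aux/IAA genes tested out of 23, whose products repress auxin response and are induced by auxin, 13 rose and 3 fell (median 0.32). IAA2 had 50.8, 48.9 and 48.3 TPM at 21 °C and 85.0, 89.9 and 96.8 TPM at 27 °C (0.86, adjusted p = 7.26e-08), and IAA19 had 2.92, 3.12 and 4.13 TPM against 10, 10.2 and 11.5 TPM (1.41, adjusted p = 1e-05). IAA7 rose by 0.76. In both IAA2 and IAA19 the warm libraries lay well apart from the cool ones. IAA28 went the other way, with 42.4, 40.0 and 42.1 TPM against 24.9, 24.6 and 25.3 TPM (−0.71, adjusted p = 0.000973), and IAA27 fell by 0.43.

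Gibberellin and brassinosteroid genes were more often higher than lower. Of 15 gibberellin genes tested out of 19, 10 rose and 1 fell (median 0.35). The DELLA repressors RGA1, GAI and RGL1 rose by 0.39, 0.52 and 0.47 and the synthesis gene GA20OX2 by 0.60. GA20OX1 had 0.737, 0.856 and 0.724 TPM against 2.24, 2.2 and 1.82 TPM (0.80), and passed the filter only through its warm libraries. The 1 fall, in the inactivating enzyme GA2OX6 (−0.31, adjusted p = 0.0443), was lost under 8 alternatives. Of 16 brassinosteroid genes, 8 rose and 2 fell (median 0.19). The synthesis gene DWF1 had 381.0, 381.9 and 405.0 TPM against 583.3, 659.0 and 651.2 TPM (0.69, adjusted p = 2.21e-07), CPD 99.4, 90.2 and 84.3 TPM against 141.7, 180.2 and 169.6 TPM (0.83, adjusted p = 2.51e-06), and the receptor gene BRI1 67.1, 67.0 and 66.1 TPM against 92.3, 102.8 and 94.8 TPM (0.53). The groups of these 3 do not overlap. BAS1, which inactivates brassinosteroids, rose by 0.43, while the transcription factor BES1 fell by 0.22 and the synthesis gene BR6OX1 by 0.51.

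XTH genes of the cell wall were mostly higher. Of 21 XTH genes, 17 rose and 2 fell, with a median of 1.0 against 0.07 for all genes. XTH17 had 10.4, 13.1 and 11.5 TPM at 21 °C and 35.5, 31.9 and 33.0 TPM at 27 °C (1.45, adjusted p = 4.91e-08). TCH4, the touch-induced XTH22, had 15.6, 12.6 and 13 TPM against 55, 86.9 and 98.1 TPM (2.43, adjusted p = 1.2e-07). XTH15 had 18.9, 20.6 and 16.5 TPM against 38.9, 112.7 and 111.2 TPM, with replicate 1 again lowest of the warm libraries (2.03, adjusted p = 0.000111). XTH8 and XTH9 rose by 1.1 and 1.06. Against them, XTH31 had 77.2, 106.3 and 109.9 TPM against 51.2, 42.0 and 38.6 TPM (−1.13, adjusted p = 1.67e-05), and XTH32 fell by 0.64.

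Expansins, which loosen walls, were split, with 4 of 12 tested genes higher and 3 lower (median 0.01, from −0.06 to 0.07 over the alternatives). EXPA4 had 49.8, 62.7 and 60.6 TPM against 115.7, 109.6 and 104.9 TPM (0.93, adjusted p = 5.49e-07), EXPA6 and EXPA8 rose by 0.59 and 0.90, and EXPA10 and EXPA16 fell by 0.50 and 0.55. Of 13 plasma membrane aquaporins, which pass water into growing cells, 9 rose and 0 fell (median 0.38; 1 fell in limma-voom). PIP2A had 288.6, 315.6 and 292.5 TPM against 605.1, 623.2 and 599.7 TPM (1.03, adjusted p = 5.08e-09), PIP1;5 143.3, 134.9 and 134.3 TPM against 345.5, 433.2 and 413.3 TPM (1.52), and PIP2;7 747.9, 707.2 and 717.5 TPM against 1437.7, 1721 and 1615.4 TPM (1.13). In all 3 the warm libraries stood clear of the cool ones. PIP2;6 rose by 0.81.

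**Figure D3:**
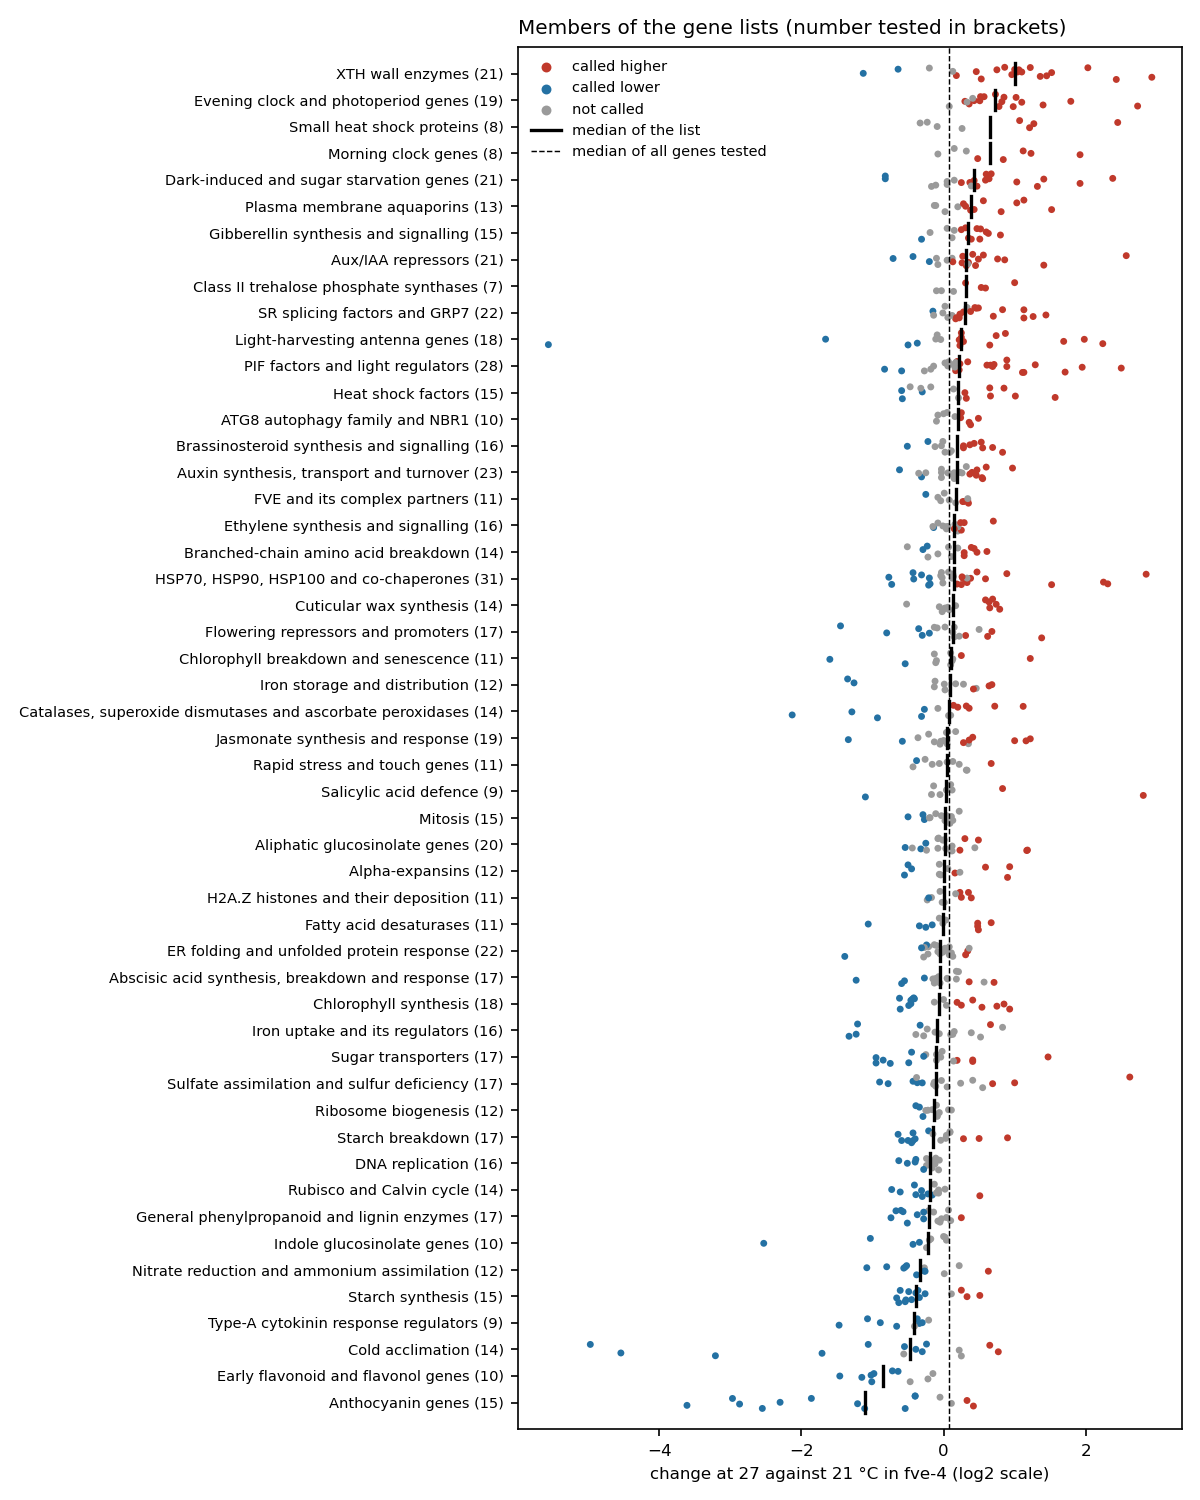
Log2 changes in fve-4 (27 against 21 °C) of the tested members of each gene list with at least 5 tested genes, tissue markers aside, 1 point per gene, with the number tested in brackets. Red is called higher, blue called lower and grey not called, the black bar is the list's median and the dashed line the median of all genes (0.07). XTH wall enzymes lie at the upper end with a median of 1.0, and anthocyanin genes at the lower end with −1.11.

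Clock genes were mostly higher at 27 °C at this time of night. Of 19 evening and photoperiod genes, 16 rose and 0 fell (median 0.73). Besides LUX, TOC1, the core evening repressor, had 75.2, 70.2 and 62.7 TPM at 21 °C and 140.0, 154.7 and 153.3 TPM at 27 °C (1.1, adjusted p = 8.35e-08). CHE, a TCP factor that represses CCA1, rose by 1.02. GI, which stabilises photoperiod signalling, had 0.635, 0.710 and 0.713 TPM against 4.59, 4.36 and 5.65 TPM (1.79), a low gene that passed the filter only through its warm libraries. ELF3, the thermosensing partner of LUX, was not called, at 79.8, 81.4 and 74.0 TPM against 78.2, 85.1 and 86.2 TPM (0.08, adjusted p = 0.274). The evening element core was in 8 of the 19 promoter windows of this list (42.1%), against 11.6% of those of all genes. It was also in 33.3% of the windows of XTH genes and in 33.3% of those of heat shock factors.

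Of 14 morning clock genes, 8 were tested and 5 of those rose, with 0 lower (median 0.66). RVE4, a MYB activator of evening genes, had 30.0, 28.2 and 28.8 TPM against 67.4, 68.8 and 71.3 TPM (1.23, adjusted p = 3.76e-08), and RVE7 0.855, 1.90 and 1.18 TPM against 7.20, 7.57 and 8.08 TPM (1.92, adjusted p = 1.44e-06). Both had all warm libraries above all cool ones. RVE1, which promotes night-time growth, rose by 1.12 and PRR7, a morning repressor, by 0.84. CCA1, LHY and PRR9 were below the filter.

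Chaperone genes were called in both directions. Of 31 HSP70, HSP90, HSP100 and co-chaperone genes, all tested, 14 rose, 8 fell and 9 were not called (median 0.14). Besides HOP3, the cytosolic HSP90.1 had 4.93, 5.80 and 4.64 TPM at 21 °C and 29.8, 27.6 and 30.3 TPM at 27 °C (2.31 ± 0.11, adjusted p = 9.25e-09). The inducible cytosolic HSP70 gene had 9.12, 11.9 and 9.33 TPM against 57.2, 52.5 and 45.8 TPM (2.25 ± 0.10, adjusted p = 7.15e-09). HSP101, the disaggregase of acquired thermotolerance, had 6.04, 6.58 and 8.13 TPM against 13.1, 13.5 and 14.1 TPM (0.89, adjusted p = 5.82e-05). HSC70-1, the abundant cytosolic HSP70, was not called, at 1648.7, 1704 and 1898.3 TPM against 1994.4, 1861.6 and 1838.4 TPM (0.12, adjusted p = 0.113). HSP70B, a heat-inducible HSP70 gene, was not called either, at 7.71, 8.22 and 6.91 TPM against 10.8, 6.32 and 8.74 TPM (0.13, adjusted p = 0.549). The mitochondrial HSP60 rose by 0.25 (adjusted p = 0.0113) and lost its call under 1 alternative.

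Several of the chaperones that fell are in the chloroplast. CPN60B, a subunit of the chaperonin that helps Rubisco fold, had 802.4, 789.3 and 784.1 TPM against 498.4, 455.4 and 476.2 TPM (−0.73, adjusted p = 1.03e-07). CPN60A, its partner subunit, had 643.2, 638.4 and 689.6 TPM against 520.6, 464.6 and 476.0 TPM (−0.43). CPHSC70-2, a stromal HSP70, had 258.1, 266.3 and 296.2 TPM against 163.2, 155.6 and 159.2 TPM (−0.77, adjusted p = 2.84e-07), and CPHSC70-1 fell by 0.31. HSP90.5, the stromal HSP90, had 300.5, 268.6 and 284.2 TPM against 224.4, 203.2 and 207.7 TPM (−0.42). For these genes the warm libraries lay below the cool ones in every case. The heat shock element core was in 8 of the 31 promoter windows of this list (25.8%), against 11.1% of those of all genes. It was also in 26.7% of the windows of anthocyanin genes and in 21.4% of those of cold acclimation genes. Small heat shock genes had it in 12.5% of their windows, evening clock genes in 5.26% and XTH genes in 4.76%.

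**Figure D4:**
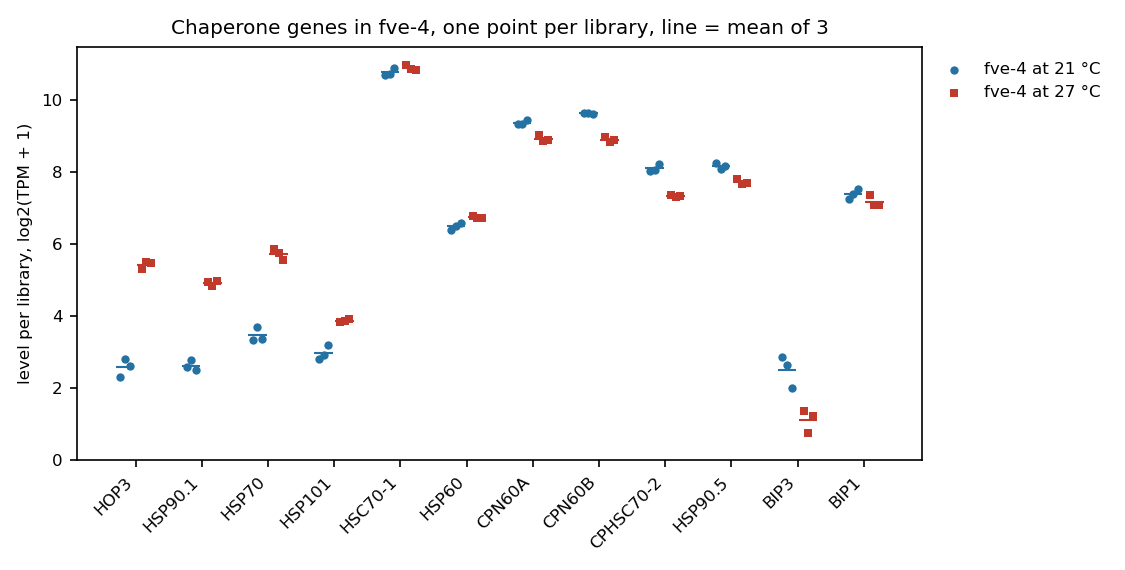
Levels of 12 chaperone genes in fve-4, as log2(TPM + 1), 1 point per library and a line at the mean of 3, with 21 °C as blue circles and 27 °C as red squares. HOP3, HSP90.1 and HSP70 are higher in every warm library, while CPN60A, CPN60B, CPHSC70-2 and HSP90.5 of the chloroplast are lower in every warm library.

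Not all small heat shock genes passed the filter, which 70.8% of all genes in the table passed. Of 14, 8 were tested, and 4 of those rose with 0 lower (median 0.66), the rises counting 2 with a pseudocount of 0.1 and 8 with no filter. AT5G51440, an HSP20-like chaperone, had 3.06, 1.32 and 1.72 TPM against 14.5, 13.9 and 17 TPM (2.45 ± 0.18, adjusted p = 3.75e-07), and AT1G07400, of the same family, rose by 1.07 (adjusted p = 0.00793). HSP17.4 (1.21, adjusted p = 0.0106) and HSP17.6A (1.27, adjusted p = 0.0379) were called but not with a pseudocount of 0.1, HSP17.6A not under 7 further alternatives either. HSP21, of the chloroplast, was listed at 0 in the cool libraries and at 0.706, 0.578 and 0.435 TPM in the warm ones, below the filter. Of 15 heat shock factor genes and cofactors tested out of 16, 7 rose and 3 fell (median 0.21; 5 fell after quantile normalization). MBF1C, a thermotolerance cofactor, had 8.68, 7.92 and 10.4 TPM against 30.3, 28.9 and 26.3 TPM (1.57, adjusted p = 6.18e-07). HSFA3 and HSFB2A rose by 0.85 and 0.66, while HSFC1 and HSFA1E fell by 0.58 and 0.59.

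Endoplasmic reticulum genes were called less often than genes at large, 22.7% against 39.7%, a share that depended on the scaling and libraries used. Of 22 folding and unfolded-protein-response genes, 2 rose and 3 fell (median −0.05), the falls counting 5 to 8 after median-ratio or quantile scaling, without replicate 1 of either group, or in limma-voom. BIP3, the most stress-induced BiP gene, had 6.25, 5.20 and 3.0 TPM against 1.54, 0.692 and 1.33 TPM (−1.39, adjusted p = 0.000186). BZIP60, a transcription factor of this response, fell by 0.31, while BZIP28, its membrane-bound counterpart, rose by 0.31 and the calreticulin gene CRT3 by 0.34. BIP1 was not called, at 151.0, 166.2 and 183.5 TPM against 163.2, 134.7 and 134.8 TPM (−0.21, adjusted p = 0.0916).

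Cold acclimation genes were mostly lower. Of 14 tested out of 18, 9 fell and 2 rose (median −0.47). Besides COR15A, COR15B and KIN1, the dehydrin LTI30 had 144.3, 160.9 and 133.9 TPM at 21 °C and 55.4, 36.8 and 41.2 TPM at 27 °C (−1.71, adjusted p = 1.15e-05). RD29A, a classic cold and drought reporter, had 25.7, 31.3 and 30.4 TPM against 15.9, 12.3 and 12.3 TPM (−1.06, adjusted p = 1.33e-05). In both, every warm library lay below every cool one. COR27, a cold- and clock-controlled gene, rose from 81.8, 67.5 and 67.6 TPM to 96.2, 128.3 and 118.6 TPM (0.65, adjusted p = 0.000139), as did AT4G33980 (0.77), which has no symbol in the annotation. CBF1, CBF2 and CBF3, the factors that bind the CRT/DRE, were below the filter. The CRT/DRE core was in 5 of the 14 promoter windows (35.7%), and so was the evening element core. Among the windows of all genes the shares were 16.1% and 11.6%. The CRT/DRE core was also in 37.5% of the windows of small heat shock genes.

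Desaturase genes were called in both directions, while the wax genes that were called rose. The shares called were 72.7% and 42.9%, against 39.7% of all genes. Of 11 desaturase genes, 4 rose and 4 fell. FAD8, a plastid desaturase known to act at low temperature, had 53.7, 54.6 and 59.8 TPM against 27.3, 24.8 and 26.9 TPM (−1.06 ± 0.06, adjusted p = 6.11e-08), while its partner FAD7 was not called (−0.06). FAD2, the desaturase of the endoplasmic reticulum, had 613.5, 613.7 and 627.9 TPM against 857.0, 887.2 and 851.6 TPM (0.48, adjusted p = 3.17e-07). ADS2 and FAD5 rose by 0.48 and 0.49, and FAD6 fell by 0.34. Of 14 wax genes tested out of 16, 6 rose and 0 fell (median 0.13; 1 fell without 27 °C replicate 1 or in limma-voom). CER3 had 42.3, 35.8 and 37.5 TPM against 60.8, 67.6 and 66.4 TPM (0.74, adjusted p = 1.31e-06) and CER1, which acts with it in alkane formation, 15.3, 19.0 and 20.1 TPM against 29.5, 32.3 and 34.0 TPM (0.79). CUT1 and KCS1, of fatty acid elongation, rose by 0.59 and 0.65.

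Flavonoid genes were mostly lower at 27 °C. Of 10 early flavonoid and flavonol genes tested out of 11, 7 fell and 0 rose (median −0.85). TT4 (AT5G13930), chalcone synthase, had 303.8, 343.2 and 395.7 TPM at 21 °C and 291.7, 192.0 and 192.2 TPM at 27 °C. Its fall of 0.64 (adjusted p = 0.0163) rests on small margins and lost its call without 21 °C replicate 3 or 27 °C replicate 2 or 3 (highest adjusted p 0.0697). TT5, chalcone isomerase, had 35.3, 43.2 and 49.5 TPM against 24.5, 15.1 and 17.2 TPM (−1.15, adjusted p = 3.65e-05), and F3H, the next enzyme, 47.8, 52.7 and 62.3 TPM against 25.6, 15.3 and 17.4 TPM (−1.46, adjusted p = 7.94e-05). CHIL, which assists chalcone synthase, fell by 1.02 and the glycosyltransferase UGT78D2 by 0.72. MYB12 and MYB111, which switch on these steps, were not called (−0.47 and −0.15).

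Of 15 anthocyanin genes tested out of 16, 11 fell and 2 rose (median −1.11). AT4G14090, a UDP-glycosyltransferase, had 19.0, 20.7 and 25.7 TPM against 4.23, 2.82 and 1.92 TPM (−2.55, adjusted p = 2.1e-07). The regulators PAP1, a MYB factor, and TT8, a bHLH factor, had 1.84 to 3.82 and 2.27 to 3.02 TPM against 0.477 to 1.03 and 0.357 to 0.838 TPM (−1.21 and −1.11). PAP1 was thus lower in each warm library than in any cool one. TT8 passed the filter only through the cool libraries, so its separation was set by the filter and is a description. The 2 that rose were TTG1, the WD40 partner of these factors (0.33, adjusted p = 0.00228), and the repressor MYBL2 at 9.82, 7.69 and 6.79 TPM against 9.08, 12.5 and 11.9 TPM, which overlap (0.42, adjusted p = 0.0494, lost under 12 alternatives). Of 17 general phenylpropanoid and lignin genes, 8 fell and 1 rose (median −0.21; 5 fell without 27 °C replicate 2 or 3). PAL3, CAD4, 4CL1 and 4CL3 fell by 0.74, 0.57, 0.37 and 0.67, and CCR1 rose by 0.25 (adjusted p = 0.0249, lost under 5 alternatives).

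Aliphatic glucosinolate genes, which make methionine-derived defence compounds, showed no common direction in fve-4. Of 20 tested out of 21, 5 rose and 3 fell, with a median of 0.02 that ranged from −0.23 to 0.17 over the alternatives. MAM3, of methionine chain elongation, had 2.05, 4.67 and 8.14 TPM at 21 °C and 12.4, 13.8 and 8.13 TPM at 27 °C, which overlap by a hair (1.17, adjusted p = 0.00885). MAM1, its companion, was not called, at 41.6, 84.8 and 83.2 TPM against 80.5, 73.1 and 64.8 TPM (0.12, adjusted p = 0.69). MYB28, the main regulator, had 66.3, 77.3 and 72.3 TPM against 61.2, 59.7 and 60.4 TPM (−0.25, adjusted p = 0.00489), and BCAT3 fell by 0.32. In several of these genes replicate 1 at 21 °C was the lowest cool library, and without it 2 rose and 6 fell. Without 27 °C replicate 1, 2 rose, and 3 rose without 27 °C replicate 2 or after median-ratio rescaling, while 5 fell in limma-voom.

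Of 10 indole glucosinolate and camalexin genes tested out of 12, 4 fell and 0 rose (median −0.22; 7 fell in limma-voom). Besides CYP71A12 they were the myrosinase gene PEN2 (−0.43, adjusted p = 9.18e-06), the transporter gene PEN3 (−0.34) and CYP81F2 (−1.03), which modifies indole glucosinolates. Of 17 sulfur genes tested out of 19, 5 fell and 3 rose (median −0.11; 3 fell without 21 °C replicate 3 or 27 °C replicate 2 or 3). APR2, adenosine phosphosulfate reductase, had 94.2, 69.9 and 67.1 TPM against 51.9, 39.5 and 41.3 TPM (−0.78, adjusted p = 0.000206). The transporters went the other way, SULTR2;1 from 51.7, 64.4 and 57.7 TPM to 92.7, 97.2 and 91.3 TPM (0.69, adjusted p = 1.71e-05) and SULTR1;2 from 13.4, 12.7 and 14.6 TPM to 31.0, 28.0 and 25.6 TPM (1.0, adjusted p = 3.51e-05). LSU1, described above, was the third rise.

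Genes switched on by darkness and sugar shortage were mostly higher in the warmth. Of 21 tested out of 22, 13 rose and 2 fell (median 0.43; 4 fell in limma-voom). DIN10, a raffinose synthase-like gene, had 165.8, 123.5 and 110.4 TPM at 21 °C and 406.4, 547.5 and 560.3 TPM at 27 °C (1.92 ± 0.14, adjusted p = 2.43e-07). ASN1 (AT3G47340), asparagine synthetase, had 64.1, 40.1 and 25.6 TPM against 166.0, 246.2 and 244.6 TPM (2.38, adjusted p = 3.94e-06). AT3G15450, an aluminium-induced protein, had 863.1, 647.4 and 548.3 TPM against 1406.4, 1829.4 and 1847.2 TPM (1.32, adjusted p = 7.37e-06). For all 3 the cool library nearest the warm ones was replicate 1, and the warm library nearest the cool ones was replicate 1. AKINBETA1, a subunit of the SnRK1 kinase, rose by 1.03, while PPDK had 23.3, 19.7 and 15.1 TPM against 10.2, 10.6 and 10.3 TPM (−0.82, adjusted p = 0.00014) and DIN2 fell by 0.82.

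Related carbon lists had smaller medians. Of 14 genes of branched-chain amino acid breakdown, 6 rose and 2 fell (median 0.15), with MCCB, MCCA, ETFQO and DIN4 rising by 0.43, 0.61, 0.47 and 0.39. The 2 falls, ALDH6B2 (−0.23, adjusted p = 0.0459) and BCAT1 (−0.29, adjusted p = 0.0495), were each lost under 8 alternatives. Of 7 class II trehalose phosphate synthase genes, 4 rose and 0 fell (median 0.31), led by TPS8 at 51.3, 48.0 and 44.9 TPM against 86.3, 105.1 and 101.5 TPM (1.0, adjusted p = 4.58e-07). TPS6, TPS7 and TPS11 rose by 0.53, 0.31 and 0.59.

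Starch synthesis genes were mostly lower. Of 15 synthesis genes, 11 fell and 3 rose (median −0.39; 1 rose after quantile normalization). APL1, a subunit of the first committed enzyme, had 166.2, 171.5 and 172.6 TPM against 118.6, 114.5 and 117.6 TPM (−0.54, adjusted p = 4.37e-07), and the synthase SS1 62.8, 71.8 and 69.6 TPM against 40.3, 46.0 and 41.9 TPM (−0.66). PGI1 and PGM1 fell by 0.53 and 0.63, while the synthases SS2 (0.25) and GBSS1 (0.51) rose, SS2 losing its call after quantile normalization. Of 17 breakdown genes tested out of 18, 8 fell and 3 rose (median −0.15). SEX1, which phosphorylates starch, had 101.5, 111.4 and 106.7 TPM against 70.9, 71.1 and 69.2 TPM (−0.59, adjusted p = 3.19e-06), and AMY3 and PWD fell by 0.64 and 0.43. BAM9, a beta-amylase relative, had 18.7, 22.1 and 20.3 TPM against 40.1, 38.1 and 38.5 TPM (0.90, adjusted p = 4.69e-07), and BAM4 rose by 0.50.

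Of 17 sugar transporter genes tested out of 20, 7 fell and 4 rose (median −0.10; 2 rose without 27 °C replicate 3). STP1, a hexose uptake carrier, had 105.3, 92.9 and 87.2 TPM against 207.9, 307.0 and 292.0 TPM (1.47, adjusted p = 4.95e-07). STP13, another, had 26.6, 25.1 and 22.4 TPM against 13.1, 11.3 and 12.6 TPM (−0.95, adjusted p = 1.42e-06). These relatives moved in opposite directions, with no overlap in either. STP14 rose by 0.41, and SWEET12 and SWEET1 fell by 0.45 and 0.85. Of 12 nitrate and ammonium genes tested out of 13, 8 fell and 1 rose (median −0.33; 2 rose with the fve-4 libraries fitted alone). NIA1, nitrate reductase, had 244.6, 256.0 and 195.0 TPM against 113.4, 111.9 and 100.7 TPM (−1.08, adjusted p = 6.91e-07), and ASN2, the asparagine synthetase of ammonium assimilation, 296.7, 305.4 and 261.1 TPM against 174.9, 159.8 and 159.5 TPM (−0.80). NIR1 and GLT1 fell by 0.54 and 0.52. The nitrate transceptor NRT1.1 had 41.2, 55.3 and 68.9 TPM against 81.6, 89.9 and 81.0 TPM (0.63, adjusted p = 0.00297).

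Some regulators of iron uptake fell, while FRU, BHLH100, BHLH101, MYB10 and MYB72 were not called, nor were the uptake genes IRT1 and FRO2. Of 16 uptake genes, 4 fell and 1 rose (median −0.09, from −0.18 to 0.03 over the alternatives). That is 31.2% called, against 39.7% of all genes. The rises counted 0 with a pseudocount of 0.1 or without replicate 1 of either group. They counted 2 after quantile normalization, with the fve-4 libraries fitted alone, with the replicate number as a block or in limma-voom. PYE, a bHLH repressor of iron genes, had 16.0, 16.4 and 17 TPM at 21 °C and 7.43, 6.21 and 6.09 TPM at 27 °C (−1.21, adjusted p = 6.33e-07). BHLH38 and BHLH39, activators of uptake, had 5.67 to 8.89 and 13 to 18.8 TPM against 1.64 to 3.35 and 3.64 to 10.2 TPM (−1.33 and −1.23), and the ligase BTS fell by 0.33. IRT1, the iron transporter, was not called, at 65.0, 79.7 and 74.5 TPM against 111.8, 70.1 and 65.3 TPM (0.13, adjusted p = 0.849). FRO2, the ferric reductase, was not called either, although its groups do not overlap, at 14.8, 21.4 and 19.1 TPM against 43.6, 29.1 and 29.0 TPM (0.83, adjusted p = 0.0508). Of 12 storage and distribution genes tested out of 13, 3 rose and 2 fell (median 0.09; 4 fell under either rescaling or limma-voom). OPT3, a phloem iron transporter, had 189.0, 218.7 and 208.9 TPM against 74.6, 87.1 and 78.6 TPM (−1.35, adjusted p = 1.89e-08), NAS4, nicotianamine synthase, 42.3, 46.2 and 47.5 TPM against 20.2, 18.6 and 16.4 TPM (−1.26), and the ferritin FER1 122.4, 88.9 and 82.6 TPM against 142.4, 157.3 and 152.2 TPM (0.64, adjusted p = 0.00042). FRO3 rose by 0.42.

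Antenna genes of photosynthesis were called in both directions. Of 18, 11 rose and 4 fell (median 0.24). LHCB4.2, a minor antenna protein, had 281.0, 287.7 and 306.3 TPM at 21 °C and 933.5, 916.5 and 982.3 TPM at 27 °C (1.69 ± 0.05, adjusted p = 5.24e-10). LHCB2.2 had 29.5, 30.0 and 29.1 TPM against 119.5, 111.6 and 127.5 TPM (1.98 ± 0.07, adjusted p = 1.35e-09). LHCB1.1 and LHCB1.2 both fell, LHCB1.1 as given above and LHCB1.2 from 6351.4, 6059.8 and 6152.1 TPM to 1956.8, 1880.7 and 2020.1 TPM (−1.66 ± 0.06, adjusted p = 7.95e-10). Because their reads can be split among near-identical copies, their separate values are uncertain. In the summed level of 6 green shoot markers, which include antenna genes, fve-4 had 34187.7 to 34392.2 TPM at 21 °C and 26843.9 to 27491.6 TPM at 27 °C.

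Of 14 Rubisco and Calvin cycle genes, 8 fell and 1 rose (median −0.19; 2 rose after quantile normalization). CP12-2 and SBPASE, a regulator and an enzyme of the cycle, fell by 0.61 and 0.41 and RBCS1B, a small subunit of Rubisco with near copies, by 0.73. The aldolase FBA1 had 486.0, 479.7 and 503.7 TPM against 742.1, 661.6 and 690.0 TPM (0.51, adjusted p = 1.6e-05). Of 18 chlorophyll synthesis genes tested out of 20, 7 rose and 8 fell (median −0.07). CHLI1, of magnesium chelatase, had 612.3, 618.6 and 649.8 TPM against 422.2, 399.2 and 403.7 TPM (−0.62, adjusted p = 1.83e-07), and CHLI2 and HEMC fell by 0.61 and 0.42. CAO, which makes chlorophyll b, had 18.9, 19.2 and 20.9 TPM against 41.7, 37.3 and 36.4 TPM (0.93, adjusted p = 3.24e-07), and PORB, protochlorophyllide oxidoreductase, 397.0, 464.8 and 486.4 TPM against 772.7, 743.5 and 746.7 TPM (0.75). Both sets of changes had no overlap between groups. Of 11 chlorophyll breakdown and senescence genes tested out of 13, 2 rose and 2 fell (1 rose under 7 alternatives and 4 fell in limma-voom), among them SAG21 at 747.2, 646.3 and 559.3 TPM against 225.5, 219.9 and 195.4 TPM (−1.6, adjusted p = 2.37e-08) and the NAC factor NAP at 2.34, 0.690 and 1.13 TPM against 2.48, 5.54 and 5.68 TPM (1.22, adjusted p = 0.00233).

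Superoxide dismutase genes were called in both directions. FSD1, which uses iron, had 324.7, 356.2 and 408.4 TPM against 717.7, 833.0 and 815.0 TPM (1.12, adjusted p = 2.16e-07). CSD2 (AT2G28190), a chloroplast enzyme that uses copper and zinc, had 258.1, 184.8 and 158.7 TPM against 52.0, 39.2 and 42.3 TPM, 4.51-fold lower (−2.13 ± 0.15, adjusted p = 2.74e-07), and the cytosolic CSD1 177.7, 135.6 and 117.4 TPM against 63.4, 52.6 and 55.7 TPM (−1.29, adjusted p = 2.16e-06). In all 3 genes the groups were clear of each other. The peroxidase SAPX had 81.4, 76.2 and 78.3 TPM against 44.1, 39.5 and 38.6 TPM (−0.93) and the catalase CAT3 959.8, 926.6 and 862.4 TPM against 1478, 1557.9 and 1481.7 TPM (0.72). Of the 14 genes of this list tested out of 15, 6 rose and 5 fell.

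Cytokinin response regulators of type A, which are induced by cytokinin and feed back on it, fell in 7 of 9 members with 0 higher (median −0.41). ARR8 had 57.4, 56.8 and 50.1 TPM against 29.5, 23.8 and 23.5 TPM (−1.07, adjusted p = 3.79e-07) and ARR7 31.1, 30.5 and 24.7 TPM against 11, 8.83 and 9.32 TPM (−1.47, adjusted p = 3.32e-06). ARR6 and ARR4 fell by 0.66 and 0.34. Of 19 jasmonate genes tested out of 21, 6 rose and 2 fell (median 0.05, from −0.04 to 0.17 over the alternatives; 1 fell under 7 alternatives and 5 without 27 °C replicate 1). The repressor gene JAZ9 had 11.3, 11.9 and 10.7 TPM against 38.5, 23.2 and 23.7 TPM (1.22, adjusted p = 6.34e-05), JAZ12 rose by 0.36, and VSP2, a storage protein, had 49.8, 51.0 and 49.7 TPM against 31.8, 14.9 and 15.0 TPM (−1.34, adjusted p = 0.000159). LOX2, the first enzyme of jasmonate synthesis, had 144.8, 196.7 and 213.1 TPM against 329.5, 116.5 and 120.3 TPM, a warm group split by replicate 1, and was not called (−0.13, adjusted p = 0.757).

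Ethylene, abscisic acid and salicylic acid genes were called in 37.5%, 35.3% and 33.3% of those tested, shares near the 39.7% of all genes. Of 16 ethylene genes tested out of 21, 5 rose and 1 fell (median 0.15; 3 rose after median-ratio rescaling, without replicate 3 of either group or in limma-voom, and 0 fell under 7 alternatives), with the transcription factors EIN3 and EIL1 rising by 0.24 and 0.29 and the synthesis gene ACS11 by 0.70. Of 17 abscisic acid genes tested out of 19, 2 rose and 4 fell. CYP707A1, which breaks the hormone down, had 8.99, 12.8 and 9.83 TPM against 5.28, 3.43 and 3.2 TPM (−1.23, adjusted p = 6.21e-05), while the factor ABF3 rose by 0.71. The phosphatase genes HAB1 and ABI1 had changes of 0.36 and −0.27. Of 9 salicylic acid genes tested out of 13, 2 rose and 1 fell (4 rose with no filter, and 2 fell under 6 alternatives). WRKY70 had 6.35, 12.3 and 8.82 TPM against 16.8, 18.5 and 14.5 TPM (0.83, adjusted p = 0.00479) and PR5 fell by 1.1 (adjusted p = 0.00138).

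Most genes of RNA-binding splicing proteins rose. Of 22 genes, SR factors and GRP7, 15 rose and 1 fell (median 0.30). RSZ33 had 72.3, 66.1 and 72.4 TPM at 21 °C and 165.0, 171.8 and 170.9 TPM at 27 °C (1.26, adjusted p = 1.35e-09). SR45A had 18.4, 19.4 and 19.9 TPM against 57.3, 50.8 and 53.6 TPM (1.44, adjusted p = 8.79e-09), and GRP7, a clock-controlled glycine-rich protein, 2360, 2524 and 2625 TPM against 5063, 5685 and 5695 TPM (1.13, adjusted p = 2.18e-08). All of these had tight, separate groups. SCL33 rose by 1.13, and the 1 fall, in RSZ22 (−0.15, adjusted p = 0.0356), was lost under 7 alternatives. Reads were counted per gene, so splice forms were not analysed here.

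Most genes of cell division and ribosome formation were not called, and those called were all lower. Not called were 11 of 16 DNA replication, 12 of 15 mitosis and 9 of 12 ribosome biogenesis genes. The share called was 31.2% for DNA replication, against 39.7% of all genes, and smaller still in the other lists named. These shares depended on the scaling and libraries used. Of 16 DNA replication genes, 5 fell and 0 rose (median −0.19), a count of 9 after either rescaling or in limma-voom, 8 without 21 °C replicate 1 and 3 without 21 °C replicate 3. TSO2 and RNR1, subunits of ribonucleotide reductase, fell by 0.51 and 0.40 and the licensing gene CDT1A by 0.63. Of 15 mitosis genes, 3 fell and 0 rose (median 0.02, with 1 to 5 falls over the alternatives), CYCB1;1 by 0.50 (adjusted p = 0.00102). Of 12 ribosome biogenesis genes, 3 fell and 0 rose (median −0.13; 6 to 8 fell under either rescaling or limma-voom), FIB2 by 0.34 and CBF5 by 0.29. The telo-box was in 8 of the 12 promoter windows of that list (66.7%), against 9.22% of those of all genes. Of 10 autophagy genes of the ATG8 family and NBR1, 5 rose and 0 fell (median 0.20; 3 rose after either rescaling, without 21 °C replicate 2 or 27 °C replicate 3, or in limma-voom, and 1 fell under 5 alternatives), ATG8E by 0.49 on the log2 scale. Of 11 rapid stress and touch genes tested out of 13, 1 rose and 1 fell, ERF6 (0.67, adjusted p = 0.0104, lost without 21 °C replicate 3) and WRKY33 (−0.38, adjusted p = 0.0497, lost under 10 alternatives).

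Chromatin genes around FVE were called at small changes and about as often as genes at large. The share called was 45.5% in each of the lists that follow, against 39.7% of all genes. Of 11 genes for FVE and its partners, 4 rose and 1 fell (median 0.17); FVE is the first of the rises and HDA9 the fall. AT3G52250, a homeodomain-like protein, LDL1, a histone demethylase, and HDA5, a deacetylase, rose by 0.29, 0.34 and 0.27. The deacetylase genes HDA6 and HDA19 and the FVE paralogue MSI5 were not called (−0.04, 0.01 and 0.08). Of 11 genes for the histone variant H2A.Z and its handling, 4 rose and 1 fell (median 0.01, from −0.09 to 0.15 over the alternatives; 2 rose and 3 fell after median-ratio rescaling, 3 fell without 21 °C replicate 1 and 0 without 21 °C replicate 2 or 3 or 27 °C replicate 1 or 2). INO80, ARP4 and HTA9 rose by 0.35, 0.39 and 0.23, HTA9 losing its call after median-ratio rescaling.

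Flowering genes were called in both directions, 4 higher and 5 lower of 17 tested out of 22 (3 lower without 21 °C replicate 2 or 27 °C replicate 3). SVP, a repressor that acts with FLC, had 22, 18.7 and 20.2 TPM at 21 °C and 30.6, 31.7 and 32.9 TPM at 27 °C (0.62, adjusted p = 1.07e-05). SOC1, which SVP and FLC repress, had 2.65, 3.01 and 3.32 TPM against 0.671, 0.503 and 0.230 TPM (−1.45), and passed the filter only through its cool libraries. SPL3, a promoter of the floral transition, had 11.3, 9.70 and 6.53 TPM against 21.0, 25 and 29.5 TPM (1.38, adjusted p = 2.4e-05). The groups of SVP and SPL3 do not overlap. FLC had 22.8, 25.5 and 21.3 TPM against 28.2, 28.4 and 30.0 TPM, a change of 0.31 (adjusted p = 0.0217) that lost its call under 7 alternatives, and SNZ fell by 0.80. FT, the mobile flowering signal, was listed at 0 in all 6 libraries.

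Markers of organs were read for a shift in tissue makeup. Of 10 root and root hair markers, 0 were called, and their summed level was 185.1 to 228.5 TPM at 21 °C and 183.5 to 232.3 TPM at 27 °C (1 was called lower in limma-voom). Of 6 green shoot markers 3 fell and 0 rose, 5 and 6 falling after median-ratio rescaling and in limma-voom. Of 6 flower markers only PI passed the filter (0.54, adjusted p = 0.0388, lost under 10 alternatives), with AP1 and AG at 0 in the warm libraries and summed levels of 2.16 to 2.33 and 3.54 to 5.2 TPM. Of 5 seed markers tested out of 6, 2 rose, OLEO2 (1.03, adjusted p = 0.0109) and EM1 (1.17, adjusted p = 0.013), with summed levels of 23.2 to 69.8 TPM at 21 °C and 46.7 to 115.9 TPM at 27 °C. Neither was called without 21 °C replicate 1 or without 21 °C replicate 3, while 4 rose without 21 °C replicate 2 and 1 without 27 °C replicate 3. The part of these markers in the changes of other genes was not tested.

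Where the response of fve-4 differed from that of Col was tested directly, as the interaction of genotype and temperature. The fve-4 change lay above that of Col for 2843 genes (14.5%) and below it for 3582 (18.3%). Of the 4983 genes that rose in fve-4, 1546 rose by less than Col's change and 623 by more, and for 2814 the difference was not called. Of the 2789 that fell, 765 lay above and 434 below Col's change, and 1590 were not called. Among genes not called in fve-4, 1455 lay above and 1602 below.

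Most growth and clock lists, and several others, had more members below Col than above it. In the PIF and light list the interaction was negative for 20 of 28 genes and positive for 2, with a median warm change of 0.22 in fve-4 and 0.79 in Col. PIF4 in Col had 3.31, 5.18 and 5.79 TPM at 21 °C and 78.1, 85.9 and 85.3 TPM at 27 °C, so that fve-4 was above Col when cool and below it when warm (interaction −1.39, adjusted p = 0.000497). LUX (−0.87, adjusted p = 3.09e-05), IAA29 (−1.72) and ELF3 (−0.72, adjusted p = 4.02e-05) also lay below Col's change. The interaction was negative for 12 of 19 evening clock genes and positive for 1, negative for 11 of 21 Aux/IAA genes, and negative for 10 of 16 brassinosteroid genes with 0 positive. XTH genes and expansins differed in this, XTH genes with 8 positive and 2 negative of 21 (medians of 1.0 in fve-4 and 1.12 in Col) and expansins with 6 positive and 3 negative of 12. More members below Col were also found outside growth and clock lists. Dark-induced and sugar starvation genes gave 17 negative and 1 positive of 21. With 0 positive in each, 13 of 16 ethylene genes and 10 of 14 genes of branched-chain amino acid breakdown were negative. So were 11 of 22 splicing genes and 5 of 7 class II trehalose phosphate synthase genes, again with 0 positive.

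The HSP70, HSP90 and HSP100, aliphatic glucosinolate and iron uptake lists had more members above Col, while lists near them did not all do so. In the first of these the interaction was positive for 19 of 31 genes and negative for 0, with medians of 0.14 in fve-4 and −0.35 in Col, HOP3 among them (0.90, adjusted p = 0.000855). In the aliphatic glucosinolate list it was positive for all 20 genes tested, with medians of 0.02 in fve-4 and −3.14 in Col. Iron uptake genes gave 11 positive and 0 negative of 16, with medians of −0.09 and −2.01, IRT1 (4.08, adjusted p = 0.000604) and FRO2 (3.76, adjusted p = 5.51e-05) included. Small heat shock genes gave 0 positive and 1 negative of 8, heat shock factors 1 and 5 of 15, indole glucosinolate genes 5 and 2 of 10, and iron storage and distribution genes 4 and 4 of 12. More members above Col were also found in other lists. Endoplasmic reticulum folding genes gave 13 positive and 2 negative of 22, with medians of −0.05 in fve-4 and −0.5 in Col. General phenylpropanoid and lignin genes gave 11 and 1 of 17, and sulfur genes 10 and 0 of 17. DNA replication genes gave 9 and 0 of 16, and ribosome biogenesis genes 9 and 0 of 12. Over all genes the medians were 0.07 in fve-4 and 0.08 in Col.

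Some single genes moved in opposite directions in the 2 genotypes. BCAT4 (AT3G19710), the aminotransferase that begins methionine chain elongation, had 6.05, 18.7 and 23.6 TPM in cool fve-4 and 39.4, 32.3 and 28.5 TPM in warm fve-4 (1.18 ± 0.34, adjusted p = 0.0137), against 58.1, 63.7 and 60.8 TPM in cool Col and 2.91, 1.44 and 1.65 TPM in warm Col. CYP82C4 (AT4G31940), of iron-mobilising coumarin synthesis, had 8.93, 8.34 and 10.6 TPM in cool fve-4 and 18.0, 16.2 and 12 TPM in warm fve-4, a rise that lost its call under 5 alternatives, against 37.2, 31.2 and 37.2 TPM and then 1.51, 0.584 and 0.183 TPM in Col. HIS1-3 (AT2G18050), a linker histone of drought stress, had 144.8, 130.9 and 115.2 TPM against 68.5, 56.6 and 56.1 TPM in fve-4 (−1.1 ± 0.09) and 43.1, 41.8 and 41.2 TPM against 104.5, 113.0 and 96.8 TPM in Col. In each of these genes the direction in fve-4 was opposite to that in Col, and the warm levels of HIS1-3 were higher in Col while its cool levels were higher in fve-4.

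SEN1, ASN1, ST2A, GSTU20 and LDOX went the same way in both genotypes but by different amounts. SEN1 (AT4G35770), a dark- and senescence-induced gene, had 346.3, 217.8 and 174.3 TPM in cool fve-4 and 423.9, 764.8 and 764.3 TPM in warm fve-4 (1.41 ± 0.23, adjusted p = 0.000319), against 20.0, 23.9 and 22.6 TPM and then 732.2, 708.0 and 604.3 TPM in Col. The difference between genotypes thus lay in the cool libraries, and ASN1 was similar, at 4.90, 5.03 and 4.21 TPM in cool Col. ST2A (AT5G07010), a jasmonate sulfotransferase, had 3.41, 4.17 and 3.63 TPM against 8.20, 10.5 and 10.1 TPM in fve-4 (1.16 ± 0.10), while warm Col had 65.4, 62.1 and 66.1 TPM. GSTU20 (AT1G78370), a glutathione transferase of glucosinolate synthesis, had 247.3, 335.9 and 370.6 TPM in cool fve-4 and 265.0, 186.2 and 202.4 TPM in warm fve-4, which overlap (−0.54, adjusted p = 0.0115, lost without 21 °C replicate 3 or 27 °C replicate 2), while Col fell from 764.4, 812.1 and 804.2 TPM to 52.7, 40.4 and 39.5 TPM. LDOX (AT4G22880), the enzyme after DFR, had 58.4, 61.2 and 61.2 TPM against 21.8, 13.2 and 13.8 TPM in fve-4 (−1.86 ± 0.23) and warm Col 0.341, 1.87 and 1.38 TPM. CSD2 was of another kind, as it fell in fve-4 as given above and was not called in Col (0.02, adjusted p = 0.916), where all 6 libraries lay between 56.0 and 71.0 TPM.

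**Figure D5:**
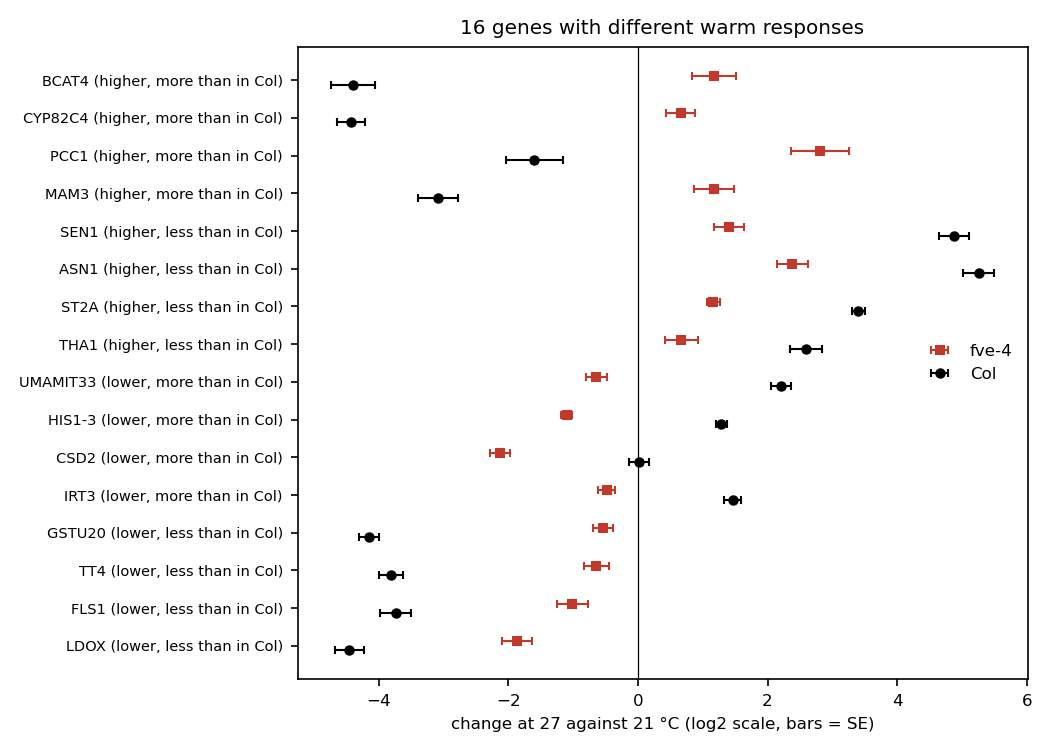
Change at 27 against 21 °C (log2 scale) in fve-4 (red squares) and Col (black circles) of the 16 genes picked for the largest differences between the genotypes, with bars for the standard error and the class of each gene in brackets. BCAT4 is at 1.18 in fve-4 and −4.40 in Col, and HIS1-3 at −1.1 in fve-4 and 1.29 in Col.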

How the data were processed

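Whole-seedling RNA was sequenced from NEBNext Ultra libraries, per the labels' protocols; strand is not given in the sources used here. The deposited values are TPM made by the authors, 1 table of 27655 genes. fastp 0.20.1, HISAT2 and DESeq2 1.26.0 with the build TAIR10 are named in the submitters' processing notes, without roles; the read counter is not given in the sources used here. TPM multiplied by gene span gave whole reads (tolerance 0.01) for 99.33% of the 23821 genes above 0, the rest by a length found from the values, so TPM is per gene span, introns included, and levels of different genes compare only on that scale. Depth was 11465313 to 14566380 recovered reads over the 12 libraries. Mannitol, named in the treatment protocol, is in the label of none of the 12 libraries and was not analysed here.

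Differences were tested with limma 3.58.1 (run in R 4.3.3), with log2(TPM + 1) as the measure and a prior that follows expression, over the 19583 genes with at least 1 TPM in at least 3 of the 6 fve-4 libraries. All 12 libraries entered 1 model of 4 group means with 8 residual degrees of freedom, giving the fve-4 change, the Col change and their difference (interaction). All tests are two-sided, p-values are adjusted over all genes tested, and a fold on this scale understates changes of low genes. Log2 changes carry standard errors after ±, and TPM carry SD. The same steps were tested on simulated data. Tables and figures came from Python 3.11.15 (numpy 2.4.6; pandas 2.3.3; matplotlib 3.10.9), and 15 alternatives were tried.

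Gene symbols, promoters and starts came from RefSeq's TAIR10.1, which held 99.24% of the identifiers; 55 lists had 870 members. The members and lists were chosen with earlier results of these data known. Genes named were FVE and HDA9; the 10 largest rises and falls among those called that bear a symbol, reach a group mean of 5 TPM and do not overlap; per list up to 4 called members by smallest adjusted p and up to 2 called against the majority; and 4 genes in each of 4 classes of interaction. Named after their values were seen were PIL1, RVE8, CDF1, HSFA2, PIF3, HY5, YUC8, GA20OX1, XTH15, ELF3, HSP101, HSC70-1, HSP70B, HSP60, CPN60A, CPHSC70-1, HSP90.5, HSP21, BIP1, RD29A, FAD7, PAP1, TT8, MYB12, MYB111, MAM1, IRT1, FRO2, FRU, BHLH100, BHLH101, MYB10, MYB72, CSD1, LOX2, FLC, FT, HDA6, HDA19, MSI5 and the 3 genes without a symbol in the closing section, and the 12 chaperones plotted were picked likewise. The gene called lower in the ethylene list is not reported here.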

Additional observations from a re-analysis of the deposited data

Results flagged for a closer look

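For 16 genes the warm response of fve-4 differed from that of Col in limma's interaction test, each picked by the naming rule for the size of that difference, so the sizes are a description. Where the fve-4 response rose above that of Col, the interaction was 5.58 log2 units for BCAT4 (adjusted p = 6.31e-06), 5.09 for CYP82C4 (adjusted p = 6.23e-07), 4.41 for PCC1 (adjusted p = 0.000173) and 4.25 for MAM3 (adjusted p = 2.33e-05). PCC1 had 2.66, 4.03 and 3.82 TPM in cool Col and 0.334, 0.969 and 0.203 TPM in warm Col, and MAM3 had 24.3, 26.1 and 25.6 TPM and then 2.43, 2.79 and 1.31 TPM.

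Among genes that rose less than in Col it was −3.47 for SEN1 (adjusted p = 1.31e-05), −2.88 for ASN1 (adjusted p = 4.6e-05), −2.24 for ST2A (adjusted p = 7.68e-07) and −1.93 for THA1 (adjusted p = 0.00112), a threonine aldolase. THA1 had 4.18, 3.14 and 2.35 TPM in cool and 3.12, 7.41 and 7.32 TPM in warm fve-4, which overlap, and its change of 0.67 in fve-4 (adjusted p = 0.0471) lost its call under 12 alternatives.

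Among genes that fell in fve-4 while Col rose or was not called, it was −2.85 for UMAMIT33 (adjusted p = 3.04e-06), an amino acid transporter family gene, −2.39 for HIS1-3 (adjusted p = 2.47e-07), −2.15 for CSD2 (adjusted p = 1.92e-05) and −1.94 for IRT3 (adjusted p = 1.03e-05), a zinc and iron transporter. UMAMIT33 had 31.5, 24.9 and 18.3 TPM against 14.5, 14.4 and 17.2 TPM in fve-4 and 5.65, 6.57 and 5.22 TPM against 32.1, 32.7 and 26.7 TPM in Col. IRT3 had 55.8, 43.0 and 40.9 TPM against 32.1, 30.0 and 36.6 TPM in fve-4 and 21.7, 23.7 and 17.8 TPM against 52.2, 64.0 and 62.2 TPM in Col.

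Among genes that fell less than in Col it was 3.61 for GSTU20 (adjusted p = 5.35e-07), 3.17 for TT4 (adjusted p = 6.11e-06), 2.73 for FLS1 (adjusted p = 8.25e-05), flavonol synthase, and 2.59 for LDOX (adjusted p = 7.79e-05). TT4 had 368.0, 375.9 and 386.1 TPM in cool Col and 33.1, 28.9 and 18.0 TPM in warm Col. FLS1 had 37.6, 48.0 and 63.8 TPM in cool and 30.5, 18.4 and 23.5 TPM in warm fve-4.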

How the results depend on the processing

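Leaving out each fve-4 library in turn gave 4090 to 4482 genes higher and 2222 to 2762 lower, 359 to 416 higher and 175 to 243 lower by at least 2-fold. With limma-voom on recovered reads 3866 genes were higher, 3991 lower and 383 lower by at least 2-fold, against 187. Of 271 single-gene calls, tried under 15 alternatives or, for the 16 interactions among them, the 14 that give one, 240 kept their call under each, 31 lost it under at least 1, and none reversed. Of 110 list counts, 65 stayed within 1.5 times. Of the calls that differed between genotypes, 44.2% were positive, against 48.8% with median-ratio scaling, 47.9% with quantiles made equal and 48.6% in limma-voom.

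Libraries of fve-4 with the same replicate number did not deviate together (correlations −0.151, −0.104 and −0.069). This gave no sign of pairing by number, but it cannot show whether the libraries were grown or prepared as pairs. With the replicate number as a block 4645 genes were higher and 2605 lower, 381 and 187 by at least 2-fold, and 2594 interactions were positive and 3156 negative.

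With 3 libraries a group, small changes are the hardest to call, and genes near 1 TPM rest on few reads.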

Other observations

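Above XTH25, 3 genes without a symbol or product in the annotation rose more, and were chosen after their values were seen. AT5G42530 had 27.1, 54.9 and 70.8 TPM in fve-4 at 21 °C and 533.3, 960.7 and 865.2 TPM at 27 °C (log2 change 3.98 ± 0.32, adjusted p = 6.52e-07; interaction 6.19). AT3G22235 had 3.55, 9.22 and 16.1 TPM against 79.5, 99.0 and 103.9 TPM (3.35 ± 0.40, adjusted p = 2.18e-05; interaction 5.54). AT2G25510 had 52.1, 93.8 and 102.7 TPM against 538.1, 777.7 and 681.3 TPM (3.03 ± 0.24, adjusted p = 6.79e-07; interaction 4.93). In all 3 the warm libraries lay far above the cool ones.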
